A study of Mus musculus with 4 samples.

Results

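The genes described here encode the histones, the proteins around which DNA is wound in chromatin. They were chosen by gene symbol: the replication-dependent genes named Hist1h to Hist4h, and the histone genes named H2af, H3f3 and H1f. The files use newer names for most of them, so that only 12 symbols match as written. Through the older symbols in the RefSeq gene table of GRCm38.p6, 77 of the 16613 gene symbols in the files were members. Of these, 64 are replication-dependent cluster genes and 13 are variant genes. The older symbol is given in brackets where a gene is first described.

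RNA was sequenced from the GFP+ cells found in the marrow of transplanted mice. Each mouse had received B220+ marrow cells that carried a transduced N-myc gene and were either Anp32b-/- (knockout) or Anp32b+/+ (wild type). The labels name the cells N-myc-induced B-ALL cells (B-cell acute lymphoblastic leukaemia) and the strain C57BL/6, and the N-myc transduction is common to both genotypes. There were 2 libraries of each genotype. The labels give neither ages, nor the sex of donors and recipients, nor the promoter that drives N-myc. They do not state whether the 2 libraries of a genotype are from different mice. The p-values therefore take in only the variation among these 4 libraries, and this may be technical.

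Replication-dependent histone genes lie in clusters, mostly carry no introns and are transcribed mainly while DNA is copied. Their messenger RNAs mostly end in a conserved stem-loop, bound by the protein Slbp, in place of a poly(A) tail. In GENCODE M21, some H2B members, H2bc4 among them, have a transcript of 2 exons. Variant genes lie outside the clusters, are mostly transcribed throughout the cell cycle and give polyadenylated messages, and their proteins replace the cluster-encoded ones at particular places in chromatin. ANP32 proteins are acidic nuclear proteins, of which several bind histones, and Anp32e is known to remove the variant H2A.Z from chromatin.

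The stem-loop was looked for in the GENCODE M21 transcripts of GRCm38, in the 150 bases after the stop codon. It was taken as 16 bases made of 6 paired bases that open with GG, a loop of 4 bases that holds TT, and the 6 bases that complete the pairing. It was found in 44 of the 51 replication-dependent genes with at least 16 bases annotated after the stop codon. Of 11 variant genes with that much annotated, H2ax alone held it. Among 20839 transcripts, 17 held it (0.0816%). The forms found are shown because they mark which histone messages can end without a poly(A) tail. Capitals mark the paired bases.
H3c4, the form of 25 replication-dependent genes, chr13:23576244-23576259, plus strand: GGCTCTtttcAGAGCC
H4c4, the form of 7 genes, chr13:23581950-23581965, plus strand: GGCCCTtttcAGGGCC
H3c3, the form of 6 genes, chr13:23745047-23745062, minus strand: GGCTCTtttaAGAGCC
H4c9, the form of 2 genes, chr13:22040966-22040981, minus strand: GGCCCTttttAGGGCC
H4c11, the form of 2 genes, chr13:21735437-21735452, plus strand: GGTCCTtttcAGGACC
H3c8, the form of 1 gene, chr13:23535889-23535904, plus strand: GGCTCTtcttAGAGCC
H2ac20, the form of 1 gene, chr3:96220418-96220433, minus strand: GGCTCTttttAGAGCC
H2ax, a variant gene, chr9:44335240-44335255, plus strand: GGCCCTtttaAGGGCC
The stem-loop forms differ in the pairs in the middle of the stem and in the loop, mostly in its last base, and the abundant H4c9 carries a loop of T alone.

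Promoter motifs were counted by histone type. In the 250 bases before the RefSeq start (GRCm38.p6), the letters CCAAT, on either strand, were in 6 of 6 replication-dependent H1, 17 of 17 H2A, 15 of 15 H2B and 8 of 9 H3 promoters. They were in 3 of 12 H4 promoters, and in 33.8% of all 32851 promoters. The letters TTTGCAT, the part of the octamer motif that Oct factors read, were in 6 of 15 H2B and 6 of 17 H2A promoters on either strand, against 4.12% of all. The letters AAACACA, known from H1 promoters, were in 5 of 6 H1 promoters on either strand, against 6.25% of all. The letters TATAAA, on the gene's own strand, were in 4 of 6 H1, 5 of 17 H2A, 3 of 15 H2B, 4 of 9 H3 and 6 of 12 H4 promoters, against 7.59% of all. Not all of these matches lie near the start: that of H4c9 is outside the 120 bases printed below. The 4 motifs were searched apart, and matches could overlap. Back-to-back H2A and H2B genes start 164 to 268 bases apart, so that 1 site can count for both genes. The TTTGCAT of H2bc8, printed below, also lies in the 250 bases before H2ac8. Promoters are shown for genes that the later results turn on: the last 120 bases before the start, with these 4 motifs in capitals (ATTGG and ATGCAAA are the other strand of CCAAT and TTTGCAT).
H1f1, chr13:23763548-23763667, plus strand: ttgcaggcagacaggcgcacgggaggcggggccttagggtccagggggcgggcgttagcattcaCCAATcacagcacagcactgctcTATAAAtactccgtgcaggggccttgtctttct
H1f5, chr13:21780626-21780745, minus strand: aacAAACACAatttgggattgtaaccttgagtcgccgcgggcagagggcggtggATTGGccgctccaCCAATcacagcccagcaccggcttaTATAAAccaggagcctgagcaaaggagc
H2bc8, chr13:23571280-23571399, plus strand: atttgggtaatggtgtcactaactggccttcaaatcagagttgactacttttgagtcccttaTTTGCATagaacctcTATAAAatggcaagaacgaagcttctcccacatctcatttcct
H2bu2, chr11:58948791-58948910, plus strand: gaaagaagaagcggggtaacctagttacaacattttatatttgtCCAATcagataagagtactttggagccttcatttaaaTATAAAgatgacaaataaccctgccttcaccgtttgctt
H4c9, chr13:22041363-22041482, minus strand: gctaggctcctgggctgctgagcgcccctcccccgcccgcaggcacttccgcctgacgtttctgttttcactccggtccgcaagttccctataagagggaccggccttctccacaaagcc
H2aj, chr6:136808128-136808247, plus strand: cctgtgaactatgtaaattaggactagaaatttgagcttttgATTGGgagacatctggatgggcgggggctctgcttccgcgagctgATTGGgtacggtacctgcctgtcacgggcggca
A match is a description of the letters, and binding by any factor was not measured.

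Depth was alike in all 4 libraries, at 19581575 and 19605800 estimated reads in the knockout libraries and 19692505 and 19758671 in the wild-type libraries. Values are given as CPM, the usual read count relative to library size, scaled by TMM, edgeR's correction for library composition. Anp32b itself was at 74.4 and 70.6 CPM in knockout libraries, against 774 and 853 CPM in wild-type libraries, a log2 fold change of -3.49 (SE 0.07, edgeR adjusted p = 2.266e-13). All 10 B lineage markers were detected, with summed levels of 6336 to 6393 CPM in knockout and 6979 to 7036 CPM in wild type, and 6 of the 10 were called lower in knockout. Markers of some other cells also moved with genotype. All 16 neutrophil markers were called lower, with sums of 127 to 128 CPM in knockout and 639 to 650 CPM in wild type, and none of them was at 0. Of 9 monocyte markers, 6 were tested and 3 called lower (sums 11.4 in both knockout libraries, against 20.8 to 23.1 CPM in wild type). Of 8 T cell markers, 5 were tested, 1 was called higher (Lat) and 1 lower (Cd4). The median log2 fold change of the 5 was -0.28. The summed level of all 8 was nevertheless higher, at 168.5 to 169.5 CPM in knockout, against 123 to 129 CPM in wild type. Of the 11 erythroid markers tested, none was called in either direction, with 2 higher and 0 lower at an unadjusted p under 0.05 in edgeR. Their median log2 fold change was 0.24 (sums 244 to 248 CPM in knockout, against 217 to 235 CPM in wild type). The 4 Y-linked genes were all called lower in knockout, at 41.7 to 42.5 CPM against 156 to 173 CPM in wild type (median log2 fold change -2.08). The labels give no sex, so genotype and a difference in the share of male cells cannot be told apart in the comparisons that follow. The part of these differences in the histone results was not tested, and in bulk RNA fewer cells of a type and less RNA per cell cannot be told apart.

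Histone messages made up 0.449% and 0.453% of the reads in knockout libraries, against 0.436% and 0.462% in wild-type libraries, so the shares overlapped. Nearly all of this came from variant genes. Summed over the 13 variants, the level was 4276 and 4327 CPM in knockout and 4090 and 4363 CPM in wild type. The 64 replication-dependent genes together gave 238 and 258 CPM in knockout, against 221 and 236 CPM in wild type, or 5.77% of the variants' level in knockout and 5.41% in wild type. Whether poly(A)-selected RNA was used is not given in the sources used here, and library preparation and the level of the cluster messages cannot be told apart.

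In the comparison of knockout with wild type, edgeR's quasi-likelihood test with Benjamini-Hochberg adjustment called 2856 of 12123 tested genes (23.6%) at an adjusted p under 0.05. Of the tested genes, 10.9% were called higher and 12.6% lower in knockout. Their median log2 fold change was 0.0021. These shares are the background for the counts that follow.

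The variant genes split between a few that rose and a majority without a call. Of 10 tested, 3 were called higher in knockout (H2aj, H1f0 and H3f3b) and none lower, against 10.9% called higher and 12.6% lower among all tested genes. At an unadjusted p under 0.05, edgeR had 1 lower, and DESeq2 and limma-voom each called the same 3 higher and none lower. The median log2 fold change of the 10 was 0.03. H1f8, Macroh2a2 and H2ab3 stayed below the filter on low counts, with at most 0.155 CPM in any library.

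H2aj (H2afj, chromosome 6, 136808248 to 136810074) encodes H2A.J, a variant of H2A known in human cells from senescence. It was at 127 and 122 CPM in knockout libraries, against 89.8 and 85.6 CPM in wild-type libraries. Both knockout libraries lay above both wild-type libraries, and the gap between genotypes was several times that between replicates. This is a log2 fold change of 0.51 (95% interval 0.39 to 0.63, SE 0.06, edgeR adjusted p = 9.647e-06). Its coding sequence equals that of the cluster gene H2ac20 at 348 of 390 bases, but only 2.19% of its 50-base stretches occur in another transcript.

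H1f0 (chromosome 15, 79028212 to 79030504) encodes the linker histone H1.0, known for its accumulation in cells that leave the cycle. It was at 36.9 and 41.9 CPM in knockout libraries, against 29.0 and 28.5 CPM in wild-type libraries. The knockout libraries were again both higher, and differed more between themselves than the wild-type libraries did. The log2 fold change was 0.45 (SE 0.08, edgeR adjusted p = 0.000656). Without the second knockout library it was 0.36, and the call was lost (edgeR adjusted p = 0.0603). H1f10 (H1fx), another linker histone encoded outside the clusters, was at 5.39 and 6.45 CPM in knockout and 6.88 and 7.31 CPM in wild type. Its libraries did not overlap, and its log2 fold change of -0.26 was not called (95% interval -0.57 to 0.05, edgeR adjusted p = 0.223).

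H3f3a and H3f3b encode the same protein, the replacement histone H3.3, from coding sequences that equal each other at only 316 of 411 bases (76.9%). H3f3b (chromosome 11, 116021961 to 116026039) was at 806 and 841 CPM in knockout, against 680 and 709 CPM in wild type. Both knockout libraries were higher, with a log2 fold change of 0.25 (SE 0.05, edgeR adjusted p = 0.00325). The call was lost without the first knockout library (0.28, adjusted p = 0.0574) and without the second (0.21, adjusted p = 0.183).
H3f3a (chromosome 1, 180802560 to 180813605) was at 961 and 981 CPM in knockout, against 989 and 1152 CPM in wild type. Both knockout libraries lay below the wild-type ones, of which the second was well above the first. The log2 fold change of -0.14 was not called (95% interval -0.28 to -0.0019, edgeR adjusted p = 0.138), while without the first wild-type library it was called lower (-0.25, adjusted p = 6.84e-05).
H3f3a thus gave 54.4% and 53.8% of the H3f3a and H3f3b reads in knockout, against 59.3% and 61.9% in wild type. The shares did not overlap, whereas the sum of both genes did, at 1767 and 1822 CPM in knockout and 1669 and 1861 CPM in wild type. Both genes share few 50-base stretches with other transcripts, 12.7% for H3f3a and 8.4% for H3f3b, and for H3f3a these lie mostly in H3f3c (7.49%). H3f3c, which GENCODE lists as a processed pseudogene, was at 0.924 and 2.12 CPM in knockout and 1.10 and 1.82 CPM in wild type, and 73.8% of its stretches are shared, so its value is uncertain.

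**Figure D1:**
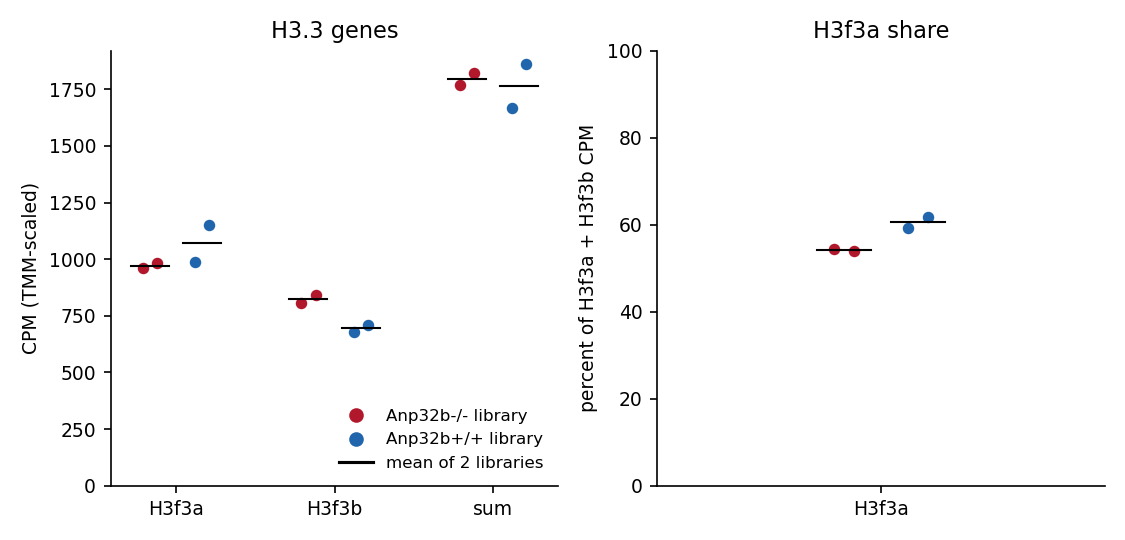
Left: CPM of H3f3a, H3f3b and their sum in each of the 4 libraries (points; lines are the means of 2 libraries). Right: H3f3a as a percent of H3f3a plus H3f3b. H3f3b is higher in both knockout libraries, H3f3a is 54.4% and 53.8% in knockout and 59.3% and 61.9% in wild type, and the sums overlap.

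The variant genes of the H2A type other than H2aj did not pass the test. Macroh2a1, which encodes macroH2A1 with its large extra domain, was at 949 and 939 CPM in knockout and 959 and 968 CPM in wild type. Its log2 fold change was -0.03, with a 95% interval of -0.14 to 0.08 (edgeR adjusted p = 0.716). H2az1 encodes H2A.Z.1, found at promoters and enhancers, and was at 804 and 797 CPM in knockout and 732 and 851 CPM in wild type. The knockout libraries lay between the wild-type libraries (log2 fold change 0.02, 95% interval -0.12 to 0.15, edgeR adjusted p = 0.891). H2az2, the gene of H2A.Z.2, was at 70.7 and 76.8 CPM in knockout and 79.1 and 82.4 CPM in wild type. Both its knockout libraries were lower, by a log2 fold change of -0.13 that was not called (edgeR adjusted p = 0.144). H2ax encodes H2A.X, which is phosphorylated at DNA breaks, and was at 515 and 520 CPM in knockout and 524 and 476 CPM in wild type. These libraries overlapped, with a log2 fold change of 0.05 (95% interval -0.07 to 0.17).

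Per kilobase of transcript (the median length of a gene's annotated transcripts), the order of the variants' levels in knockout ran from H3f3a (1612 CPM per kilobase) through H2az1 (988), Macroh2a1 (474), H2ax (374) and H3f3b (365) to H2aj (104), H2az2 (68.6) and H1f0 (19.2). In wild type the same genes were at 1777, 977, 484, 361, 308, 72.8, 75.0 and 14.0 CPM per kilobase. H2ax and H3f3b in knockout, and H2aj and H2az2 in wild type, differed by no more than the SDs of their 2 libraries. Those SDs were 2.58 and 11.0 CPM per kilobase for H2ax and H3f3b in knockout, and 2.49 and 2.22 for H2aj and H2az2 in wild type. The other neighbours in each order differed by more than the sum of their SDs. The order also rests on the lengths used, 602.5 bases for H3f3a and 2253.5 bases for H3f3b. In CPM these genes were nearer, with means of 971 and 823 in knockout and 1070 and 695 in wild type. The highest replication-dependent gene on this scale, H2ac24, was at 148 CPM per kilobase in knockout and 165 in wild type.

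**Figure D2:**
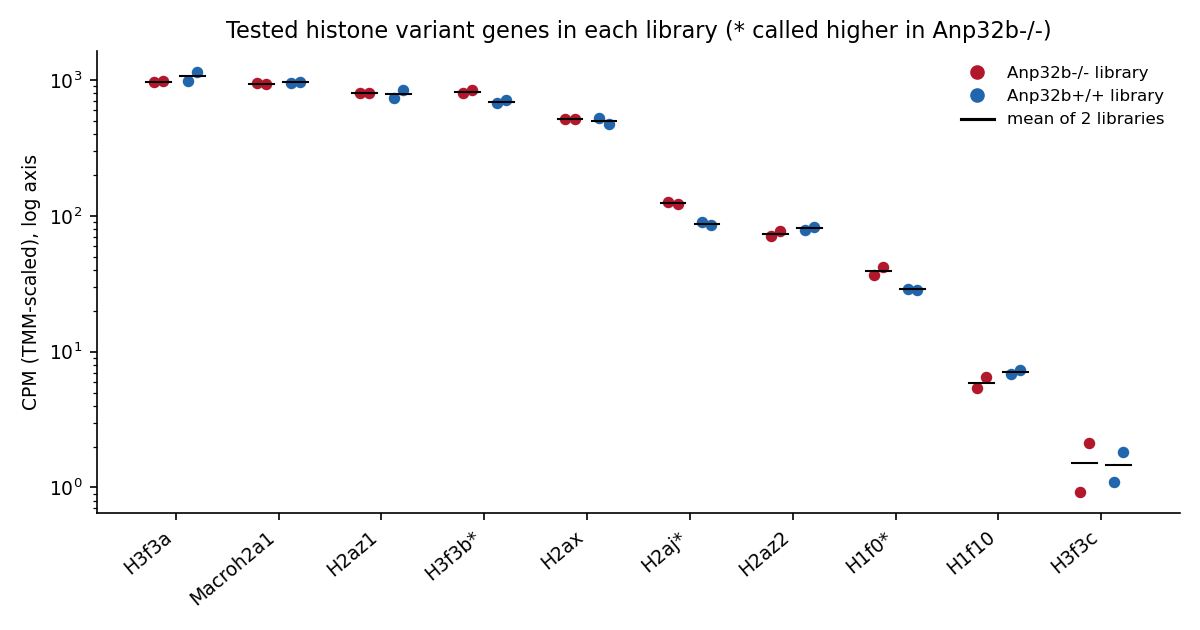
CPM on a log axis of the 10 tested histone variant genes in each library (points; lines are the means of 2 libraries), ordered by mean level. H2aj, H1f0 and H3f3b, marked with an asterisk, were called higher in knockout, and the H3f3c points scatter as widely within a genotype as between them.

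Among the replication-dependent genes, those that passed the test were all higher in knockout. Of 64 genes, 53 were tested. edgeR called 9 higher (17.0% of the 53, against 23.6% of all tested genes called in either direction and 10.9% called higher) and none lower. At an unadjusted p under 0.05 it had 14 higher and 1 lower. limma-voom called the same 9 higher, and DESeq2 none (2 higher and 0 lower at an unadjusted p under 0.05). Of the tested genes, 43 had a fold change above 0 and 10 below, with a median log2 fold change of 0.34 and a range of -0.64 to 1.60. Over all 64 genes, both knockout libraries lay above both wild-type libraries in 23, below in 4, and the libraries overlapped in 37. Among the 53 tested genes alone, they lay above in 23 and below in 1. Over all tested genes, 30.0% were separated upwards and 30.5% downwards.

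The filter bears on these counts. Of the 53 tested genes, 38 passed it in both genotypes, 6 only through the knockout libraries, 2 only through the wild-type libraries and 7 through a mixture. The 6 all had log2 fold changes above 0, from 0.50 to 1.60. The counts above and below 0 and the median therefore depend in part on the filter. Of the 9 called genes, 7 passed in both genotypes, while H1f5 and H2ac22 passed only through the knockout libraries, where they are high. Levels were low: 46 of the 64 genes had a mean under 2 CPM and 5 a mean of at least 10 CPM. The 11 genes not tested had means of 0.0882 to 0.47 CPM, where 3 reads, the limit that a count of 0 allows, equal 0.151 to 0.155 CPM (counting error only). Of the 44 genes tested and not called, 30 had a 95% interval that reached a 2-fold change in 1 direction or the other, so that their intervals do not exclude a change of that size.

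**Figure D3:**
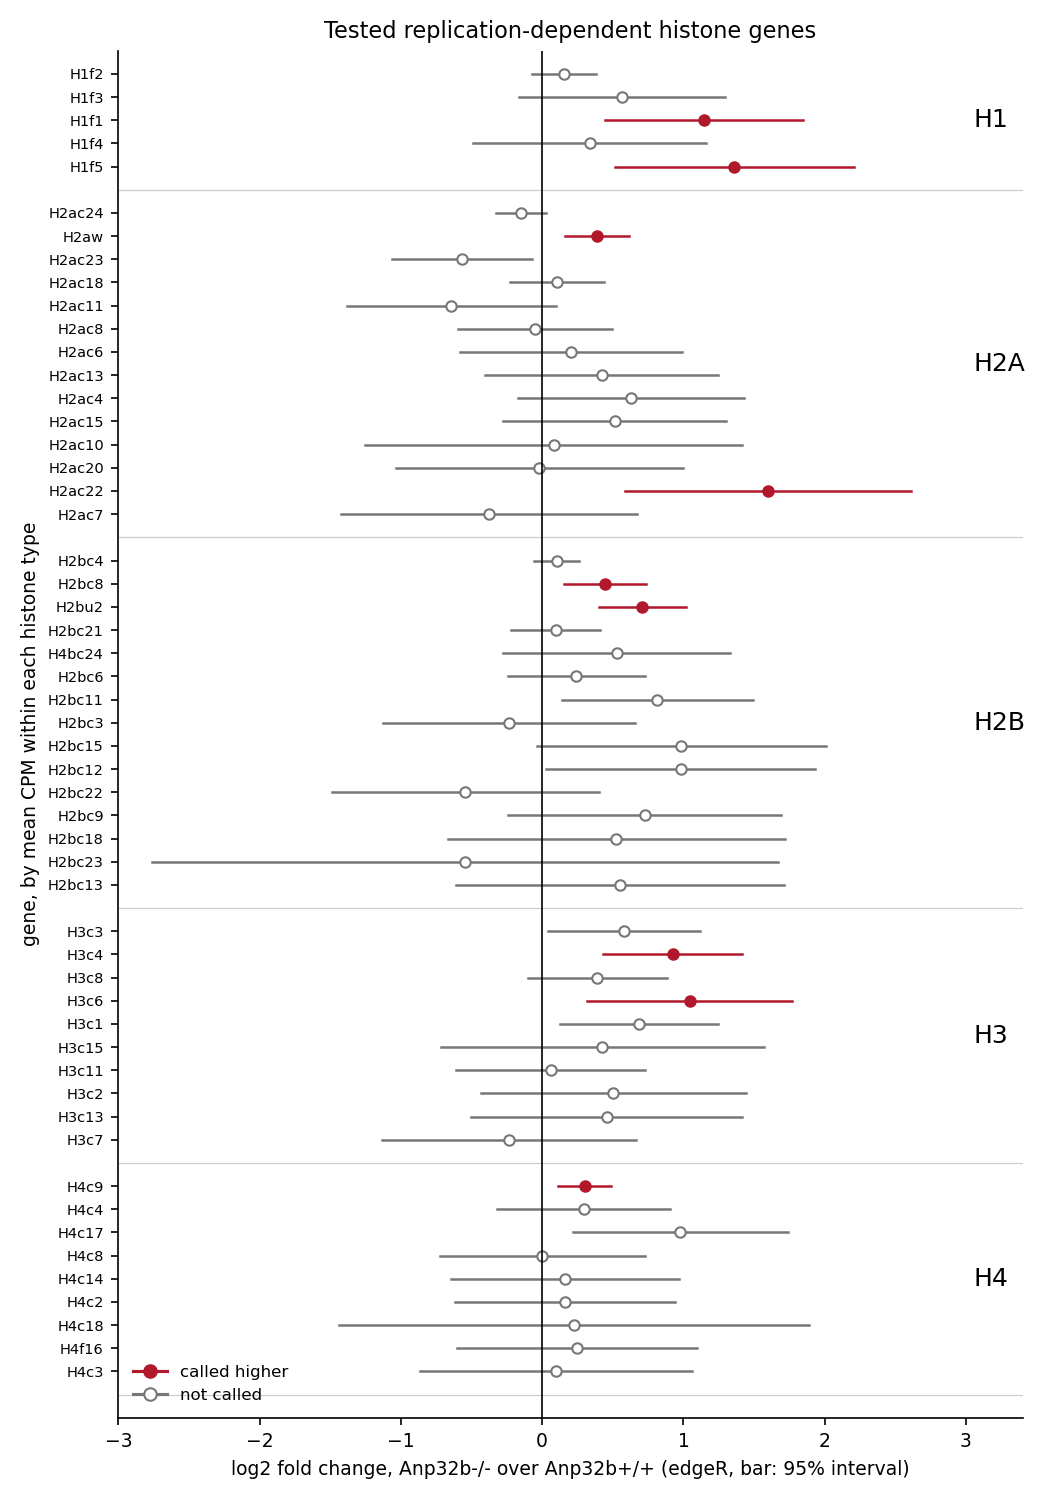
Log2 fold changes (knockout over wild type, edgeR) of the 53 tested replication-dependent genes with 95% intervals, by histone type and by mean level within a type. The 9 called genes are filled, and 43 points lie above 0 and 10 below. Of the 43, 6 passed the filter only through the knockout libraries. The intervals widen towards the less abundant genes of each type.

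Linker histone H1 binds the DNA that enters and leaves the nucleosome. Of its 6 cluster genes, 5 were tested and 2 called higher. H1f1 (Hist1h1a, chromosome 13, 23763668 to 23764412) was at 1.64 and 1.60 CPM in knockout libraries, against 0.803 and 0.656 CPM in wild-type libraries. H1f5 (Hist1h1b, chromosome 13, 21779832 to 21780625) was at 1.03 and 1.70 CPM in knockout, against 0.552 and 0.504 CPM in wild type. In both genes the knockout libraries were higher without overlap.
H1f1 had a log2 fold change of 1.15 (SE 0.33, edgeR adjusted p = 0.0199) and H1f5 of 1.36 (SE 0.39, edgeR adjusted p = 0.0224). These rest on 10 to 33 estimated reads a library for H1f5 and 13 to 32 for H1f1, and neither gene shares a 50-base stretch with another transcript. The promoters printed above hold CCAAT and TATAAA in both genes.
The most abundant H1 gene, H1f2 (Hist1h1c), was at 13.2 and 13.7 CPM in knockout and 12.9 and 11.3 CPM in wild type, without overlap but not called (log2 fold change 0.16, 95% interval -0.07 to 0.38, edgeR adjusted p = 0.322). H1f3 (Hist1h1d) was at 1.44 and 1.39 CPM in knockout and 0.703 and 1.21 CPM in wild type, with a log2 fold change of 0.56 (edgeR adjusted p = 0.266).

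Histones H2A and H2B pair with each other in the nucleosome core. For H2A, 14 of 17 cluster genes were tested and 2 called higher. H2aw (Hist3h2a, chromosome 11, 58954685 to 58955192) was at 12.5 and 12.7 CPM in knockout, against 9.74 and 9.53 CPM in wild type. The replicates were close and the genotypes apart, with a log2 fold change of 0.39 (SE 0.11, edgeR adjusted p = 0.0163). The GENCODE transcript of H2aw overlaps exons of Trim17, an E3 ubiquitin ligase gene on the same strand, and 31.5% of its 50-base stretches lie in that gene too. Trim17 was itself called higher, at 7.60 and 6.92 CPM in knockout and 4.77 and 5.50 CPM in wild type (log2 fold change 0.50, edgeR adjusted p = 0.0238). The reads of H2aw and Trim17 cannot be told apart in the overlap, so the H2aw value is uncertain.
H2ac22 (Hist1h2an, chromosome 13, 21786774 to 21787248) was at 0.719 and 1.29 CPM in knockout, against 0.351 and 0.302 CPM in wild type. The knockout libraries were higher by a log2 fold change of 1.60 (SE 0.47, edgeR adjusted p = 0.0239), on 6 to 25 estimated reads a library. Of its 50-base stretches, 85.8% occur in other H2A genes, so its value too is uncertain.

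H2ac24 (Hist1h2ap) alone gave 64.3% of the replication-dependent H2A level in knockout and 66.7% in wild type. It was at 64.7 and 78.4 CPM in knockout and 74.5 and 84.1 CPM in wild type. The libraries overlapped and the log2 fold change of -0.15 was not called (95% interval -0.33 to 0.03, edgeR adjusted p = 0.226). Its coding sequence is identical to that of H2ac23 (Hist1h2ao), and 93.1% of its stretches are shared. H2ac23 was at 7.49 and 7.38 CPM in knockout and 7.33 and 14.7 CPM in wild type, where 1 wild-type library stood apart from the other 3. The sum of both was 72.2 and 85.8 CPM in knockout and 81.9 and 98.8 CPM in wild type, again with overlap. How reads of identical copies were divided is not given in the sources used here.

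For H2B, 15 of 17 cluster genes were tested and 2 called higher. H2bu2 (Hist3h2ba, chromosome 11, 58948911 to 58949372) had the smallest p of all replication-dependent genes. It was at 7.96 and 9.09 CPM in knockout, against 5.62 and 4.79 CPM in wild type. The libraries did not overlap, and the log2 fold change was 0.71 (SE 0.14, edgeR adjusted p = 0.00247). Its shared stretches, 22.1%, all lie in the pseudogene Hist3h2bb-ps.
H2bc8 (Hist1h2bg, chromosome 13, 23571400 to 23571863), whose printed promoter holds TTTGCAT ahead of TATAAA, was at 8.06 and 8.52 CPM in knockout, against 5.62 and 6.56 CPM in wild type. The knockout libraries were higher by a log2 fold change of 0.44 (SE 0.14, edgeR adjusted p = 0.0287), and 49.7% of its stretches are shared, mostly with H2bc4. H2bc4 (Hist1h2bc), the most abundant H2B gene, was at 29.4 and 29.0 CPM in knockout and 26.9 and 27.5 CPM in wild type. Its libraries did not overlap, but the log2 fold change of 0.10 was not called (95% interval -0.05 to 0.26, edgeR adjusted p = 0.354).

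Many H2A and H2B genes stand back to back and share a promoter region. Of 11 such pairs, with starts 164 to 268 bases apart, 9 had both genes tested. In 3 of the 9 both genes had a fold change above 0, in 7 the H2B gene did and in 4 the H2A gene. No pair had both genes called. Beside H2bc8, its partner H2ac8 had a log2 fold change of -0.05 (edgeR adjusted p = 0.913), and beside H2ac22, its partner H2bc22 had -0.55 (edgeR adjusted p = 0.418). The test of a difference within a pair was not made.

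Histones H3 and H4 form the tetramer at the centre of the nucleosome. For H3, 10 of 11 cluster genes were tested and 2 called higher, and 9 of the 10 had a fold change above 0. Of these 9, 1 passed the filter only through the knockout libraries. H3c4 (Hist1h3d, chromosome 13, 23575763 to 23576266) was at 3.34 and 4.03 CPM in knockout, against 1.71 and 2.17 CPM in wild type. The knockout libraries were both higher, with a log2 fold change of 0.92 (SE 0.23, edgeR adjusted p = 0.00911), and 24.8% of its stretches are shared.
H3c6 (Hist1h3e, chromosome 13, 23561475 to 23562385) was at 2.77 and 2.12 CPM in knockout, against 1.66 and 0.706 CPM in wild type. The wild-type libraries differed by more than a factor of 2, and the log2 fold change was 1.04 (SE 0.34, edgeR adjusted p = 0.0373). Without the second wild-type library it was 0.56 (adjusted p = 0.234). Of its stretches, 73.4% are shared, mostly with H3c7, so its value is uncertain. H3c3 (Hist1h3c) was at 2.77 and 4.39 CPM in knockout and 2.11 and 2.67 CPM in wild type, with a log2 fold change of 0.58 that was not called (edgeR adjusted p = 0.114).

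For H4, 9 of 13 cluster genes were tested and 1 called higher. The 4 not tested had lower means in knockout, at 0.154 to 0.412 CPM, against 0.327 to 0.528 CPM in wild type. H4c9 (Hist1h4i, chromosome 13, 22040960 to 22041362) was at 18.9 and 18.8 CPM in knockout, against 15.4 and 15.3 CPM in wild type. Replicates agreed closely and the genotypes were apart, with a log2 fold change of 0.30 (SE 0.09, edgeR adjusted p = 0.0224), and 28.9% of its stretches are shared. It made up most of the H4 level. H4c4 (Hist1h4d) was at 2.31 and 2.99 CPM in knockout and 2.81 and 1.51 CPM in wild type, with overlap (log2 fold change 0.29, edgeR adjusted p = 0.515).

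**Figure D4:**
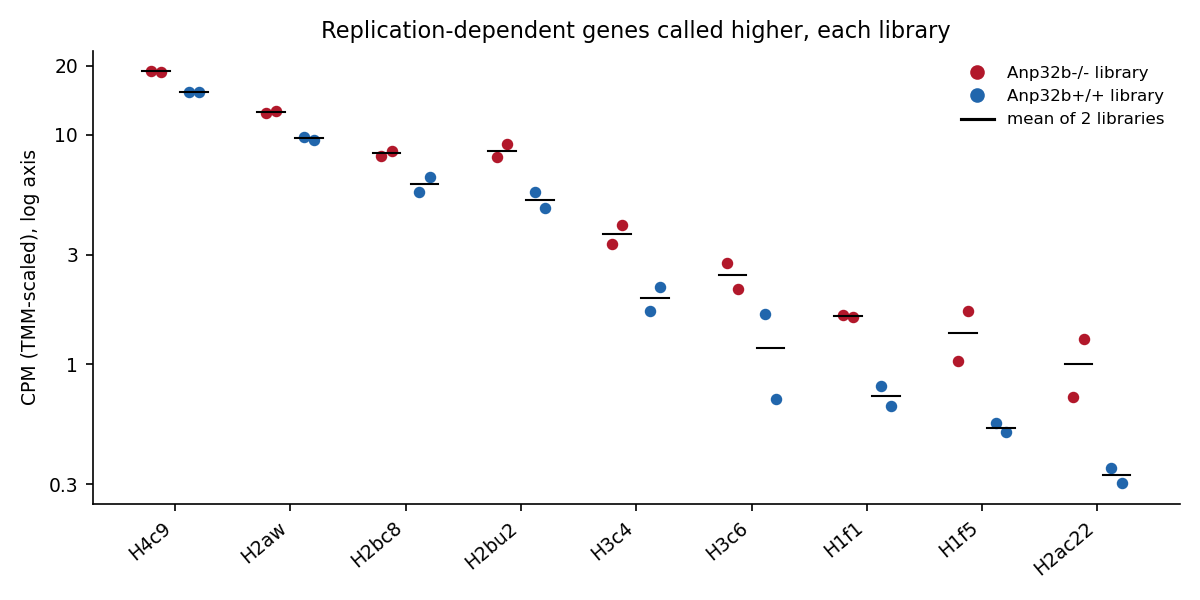
CPM on a log axis of the 9 replication-dependent genes called higher in knockout, in each library (points; lines are the means of 2 libraries). The knockout points lie above the wild-type points in every gene, from H4c9 at 18.9 and 18.8 against 15.4 and 15.3 CPM down to H2ac22 at 0.719 and 1.29 against 0.351 and 0.302 CPM.

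Sums over each histone type depend less than single genes on how reads were divided between copies of that type. The H3 sum differed most, at 20.3 and 22.8 CPM in knockout, against 14.0 and 14.3 CPM in wild type (log2 ratio 0.61). The H1 sum was 18.9 and 19.3 CPM in knockout and 16.4 and 14.4 CPM in wild type (0.31). The H2B sum was 65.8 and 66.7 CPM in knockout and 54.9 and 55.6 CPM in wild type (0.26).
In these 3 types both knockout libraries were above both wild-type libraries. The same held for H4, at 29.2 and 30.6 CPM in knockout and 25.1 and 24.7 CPM in wild type (0.26). The H2A sum was 104 and 118 CPM in knockout and 111 and 127 CPM in wild type, with overlap (-0.10).
H2ac24 weighs most in the H2A sum. Without it, H2A was at 39.5 and 39.8 CPM in knockout and 36.1 and 43.2 CPM in wild type. Over all 5 types with H2ac24, the sum was 238 and 258 CPM in knockout, against 221 and 236 CPM in wild type (0.12). The lower knockout library was thus close to the higher wild-type library. Without H2ac24, the sum was 174 and 179 CPM in knockout, against 147 and 152 CPM in wild type (0.24). H2ac23, whose coding sequence is identical, stayed in that sum, which therefore depends on how reads were divided between the 2 genes. No test was made on these sums, since with 2 libraries a genotype the smallest p of an exact permutation test is 0.333.

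**Figure D5:**
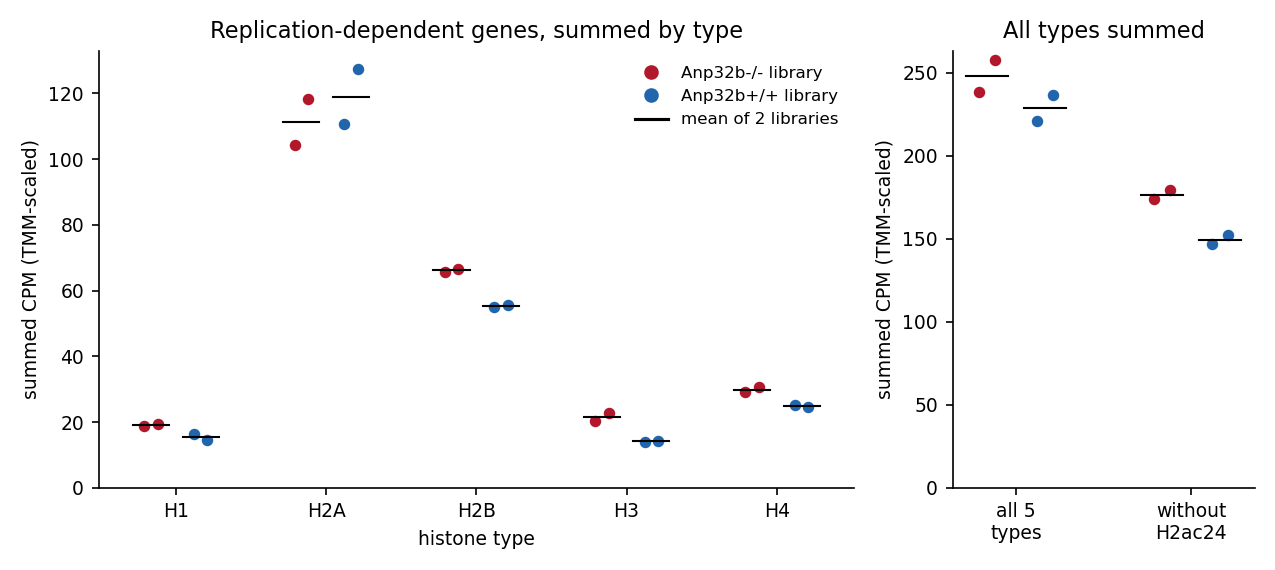
Summed CPM of the replication-dependent genes of each histone type (left) and of all 5 types with and without H2ac24 (right), in each library (points; lines are the means of 2 libraries), on axes that start at 0. Knockout libraries are above wild-type libraries for H1, H2B, H3 and H4, while the H2A sums overlap at 104 and 118 CPM in knockout and 111 and 127 CPM in wild type.

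By cluster, 7 of 43 tested Hist1 genes (16.3%) were called higher, against 10.9% of all tested genes. None of 7 was called in Hist2, both genes were in Hist3, and the single gene of Hist4 was not (H4f16, log2 fold change 0.25). The difference between clusters was not tested. At an unadjusted p under 0.05, edgeR had no Hist2 gene either, and limma-voom and DESeq2 called none. The Hist3 pair, H2bu2 and H2aw, lies on chromosome 11, and the H2aw value is uncertain through its overlap with Trim17.

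Called genes were set beside the annotation of the 3′ end. Among the 21 genes with more than 100 bases annotated beyond the stem-loop, 6 of 19 tested were called higher (H2aw, H2bc8, H2bu2, H3c4, H3c6 and H4c9). Among the 23 with up to 100 bases beyond it, edgeR and limma-voom called none of 19, with 5 higher and 1 lower at an unadjusted p under 0.05 in edgeR. Among the 20 without a stem-loop found, 3 of 15 were called (H1f1, H1f5 and H2ac22). This last class is partly one of missing annotation, since only 51 of the 64 genes had at least 16 bases annotated after the stop codon. H1f5 and H2ac22 had 0 bases annotated there, so no stem-loop could be found in them. In the first and last class, edgeR had 6 and 3 higher and 0 lower at an unadjusted p under 0.05. Among all tested genes, 10.9% were called higher. The median log2 fold changes were 0.30, 0.16 and 0.52 in that order. H1f5 and H2ac22 passed the filter only through the knockout libraries, so the calls and median of the last class depend in part on the filter. Levels also differed between these classes, with median CPM of 1.51, 1.10 and 0.733. The difference between classes was not tested.

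Near-identical copies were common and went with noisier values. A median of 49.6% of the 50-base stretches of a replication-dependent gene occur in the transcript of another gene (range 0% to 100%), against 6.14% for variants. Among 31 genes with over 50% shared, 2 of 26 tested were called, and the median gap between replicates was 1.09 on the log2 scale. Among 33 genes with up to 50% shared, 7 of 27 were called and the gap was 0.49. Levels differed too, with a median of 0.918 CPM in the first set and 1.18 CPM in the second. The parts of sharing and level in the gap were not tested. In 4 pairs (8 genes) the coding sequences are identical: H2ac18 and H2ac19, H2ac23 and H2ac24, H2bc23 (Hist1h2bq) and H4bc24 (Hist1h2br), and H4c17 (Hist1h4m) and H4c18 (Hist1h4n). H4c18 was at 0 and 1.65 CPM in knockout and 0.703 and 0.706 CPM in wild type, and H4c17 at 2.62 and 1.65 CPM in knockout and 0.703 and 1.46 CPM in wild type. Single values of these 8 genes are uncertain.

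Genes that make, process or deposit histones were set beside them. Of 22 genes of histone pre-mRNA processing and decay, 2 were called higher and 1 lower, with a median log2 fold change of 0.08. Exosc10, a nuclear exosome exonuclease (0.20, edgeR adjusted p = 0.0145), and Srrt, which links the cap-binding complex to RNA processing (0.17, edgeR adjusted p = 0.0296), rose. Cpsf2, a subunit of the cleavage complex (-0.16, edgeR adjusted p = 0.0338), fell. Slbp, which binds the stem-loops printed above, was at 145 and 148 CPM in knockout and 151 and 168 CPM in wild type, and was not called (edgeR adjusted p = 0.153).

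Of 19 genes of histone gene transcription, 4 were called higher and none lower (median 0.01). At an unadjusted p under 0.05 edgeR had 2 lower (Pou2af1 and E2f1), and DESeq2 and limma-voom called none lower. Pou2f2, which encodes the octamer-binding factor Oct2 of B cells, was at 63.1 and 60.0 CPM in knockout, against 32.2 and 31.8 CPM in wild type. Its log2 fold change of 0.94 (SE 0.07, edgeR adjusted p = 1.122e-07) exceeded the replicate spread many times over. Ccne1, the gene of cyclin E1 (0.21, edgeR adjusted p = 0.0186), and Nfya, a subunit of the CCAAT-binding factor (0.19, edgeR adjusted p = 0.0267), also rose. Npat, the coactivator of the cluster genes, was at 41.4 and 43.7 CPM in knockout and 45.0 and 39.4 CPM in wild type (edgeR adjusted p = 0.933).

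Of 41 genes of DNA replication, 1 was called higher and 3 lower (median -0.03). Gins2, of the replicative helicase (-0.29, edgeR adjusted p = 0.006), and Rrm2, of ribonucleotide reductase (-0.21, edgeR adjusted p = 0.0065), fell. Cdt1, a licensing factor (0.20, edgeR adjusted p = 0.0146), rose. Of 17 genes of variant deposition, 2 were called higher and 1 lower (median -0.01). Vps72 (0.22, edgeR adjusted p = 0.00866) and Znhit1 (0.22, edgeR adjusted p = 0.0193), both of the complex that places H2A.Z, rose. Cenpa, the centromeric H3 variant (-0.22, edgeR adjusted p = 0.0116), fell. Hira, the chaperone that deposits H3.3 (0.07, edgeR adjusted p = 0.353), and Anp32e (-0.05, edgeR adjusted p = 0.572) were not called.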

How the data were processed

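The authors deposited an estimated count (expected count) of reads per gene symbol, 1 file per library, made from RNA-seq reads. Per the submitters' processing notes, GRCm38 was the build, and HISAT2 2.0.4 and DESeq2 1.4.5 are named. Counting tool, annotation, strand setting and poly(A) selection: not given in the sources used here.

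The estimated counts were rounded and tested with edgeR 4.0.16 (R 4.3.3): quasi-likelihood test, TMM, filterByExpr (minimum count 10), no covariate, Benjamini-Hochberg adjustment over 12123 genes, call at an adjusted p under 0.05. 4490 genes fell below the filter. Sums and CPM use all members. SE and 95% intervals are from the same fit. Symbols were matched to the RefSeq gene table of GRCm38.p6 (99.6% of symbols matched) and sequences read from RefSeq and GENCODE M21. Sharing is the percent of a gene's 50-base transcript stretches found in another gene. The procedure was checked on simulated counts.

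Named are all tested variants, in each histone type up to 3 called genes with the smallest p per direction and the 2 most abundant tested genes, Anp32b, and up to 3 called genes per list. H2ac8, H2ac23, H2bc22, H3c10, H2ac11, H4c17, H4c18, H4f16, Trim17, Slbp, Npat, Hira, Pou2af1, E2f1 and Anp32e are named beyond this rule, after their values were seen. The members and lists were chosen with earlier results of these data known.

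Alternatives were a replicate block, DESeq2 1.42.0, limma-voom (limma 3.58.1), RLE and upper-quartile normalization, no filter, a filter of 10 CPM in 2 libraries, unrounded counts, a fold limit of 2, and each library left out in turn. Depth was 19581575 to 19758671 estimated reads a library. Intervals over counts of 0 cover counting error only.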

Additional observations from a re-analysis of the deposited data

How the results depend on the processing

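The 9 higher calls among replication-dependent genes became 10 with the replicate block, 0 with DESeq2, 1 without a filter on low counts, 2 at 10 CPM in 2 libraries, where 5 such genes were tested, and 4 at a fold of at least 2. Leaving out a library gave 1 to 10, and the 1 left without the second knockout library (H3c10) is none of the 9. limma-voom, RLE and upper-quartile normalization and unrounded counts each called the same 9. Lower calls, 0 here, were 3 with the replicate block (H2ac11, H2ac23 and H2ac24) and 0 to 2 with a library left out. The 3 higher variants became 0 at a fold of at least 2 and 1 to 4 with a library left out, and lower variants 0 to 1. H2aj kept its call in every alternative without a fold limit.

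Over all genes, 1323 higher and 1533 lower calls became 680 and 714 with DESeq2, 547 and 744 without a filter, 157 and 473 at a fold of at least 2, and 372 to 1676 and 579 to 1712 with a library left out.

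Of the lists, processing (2 higher, 1 lower) gave 5 and 2 with the replicate block, 1 and 3 with upper-quartile normalization, 0 and 0 without a filter, 0 lower with DESeq2, 2 lower at 10 CPM, and 0 to 6 and 0 to 3 with a library left out. Transcription (4 higher, 0 lower) gave 1 higher with DESeq2 or no filter, 2 higher and 1 lower with upper-quartile normalization, and 1 to 4 and 0 to 1 with a library left out. Replication (1 higher, 3 lower) gave 0 and 1 with DESeq2 or no filter, 5 lower with the replicate block, and 0 to 2 and 0 to 6 with a library left out. Variant deposition (2 higher, 1 lower) gave 1 higher with DESeq2, 0 and 0 without a filter, and 0 to 4 in each direction with a library left out. The H2B sum ratio became 0.23 with upper-quartile normalization.

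Some fold changes that were not called turned sign: H2az1 to -0.014 with upper-quartile normalization, -0.0027 at 10 CPM and -0.0882 to 0.1261 with a library left out, H2ax to -0.0217 to 0.1196 with a library left out, H3f3c to -0.0162 with limma-voom and -0.655 to 0.5376 with a library left out, and H4c4 to -0.0874 to 0.8076 with a library left out. The cause was not tested for any of these.

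The labels do not say that a replicate number pairs libraries. The deviations of same-numbered libraries from their genotype means correlated at 0.06 over 9435 genes. A low correlation cannot show that same-numbered libraries are unpaired, so pairing is unknown. The values with the replicate block stand only here. Under the block the log2 fold change of H2ac24 was -0.15 (edgeR adjusted p = 0.0484). With a library left out, the remaining one of its genotype was taken to vary as the other pair does. Depth limits the genes under 2 CPM most.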
